A study of Mus musculus with 16 samples.

Results

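Deletion of WT1 from GFP-high activated hepatic stellate cells (aHSCs) of chronically injured mouse liver is described here across every gene with a deposited value for that comparison. Rows of the GFP-high expression table were taken when they carried a gene name, which gave 123 of the 231 rows. The other 108 rows named only a locus. The control group was 3 samples from male C57/Bl6 mice of genotype PDGFRbCre;WT1_+_GFP;Ai14, and the deleted group was 3 samples from male C57/Bl6 mice of genotype PDGFRbCre;WT1_fl_GFP;Ai14. All were adults given chronic CCl4 (carbon tetrachloride) by intraperitoneal injection for 8 weeks, and the cells were sorted as positive for the red reporter and high for GFP.

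Both groups shared the Cre driver, the Ai14 red reporter and a GFP reporter allele knocked in at the WT1 locus, so that the groups differed in the other WT1 allele, unmodified in the controls and floxed in the deleted animals. Cre was expressed constitutively under PDGFRbCre, a driver active in stellate cells and other perivascular mesenchyme, so the deletion was not timed to the injury. The paper also describes PDGFRb expression in the germline for this driver. Cells were sorted by the reporter that stands in for WT1 itself. The level of WT1 was not analysed here, so the deletion was not checked in these libraries. The table held 1 FPKM (fragments mapped to a gene, scaled by its length and by the number of fragments in the library) per gene and group, a value that the authors had combined over the replicates. No spread between animals could be computed from it, no test was made, and every value below is a group FPKM without an error. The rows of this table were those called different between the groups, so each row had to differ and genes without a row have no value here. The paper counts fewer genes as changed by deletion in GFP-high cells than are named here. The reason for that difference was not examined, so the counts below are not the paper's. "Higher" and "lower" describe the deleted group relative to the control group throughout, and depth is unknown.

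WT1 is a zinc finger transcription factor of the embryonic mesothelium, kidney and gonad. Quiescent hepatic stellate cells (qHSCs) are perivascular cells of the liver sinusoid that store vitamin A. After injury they become contractile, matrix-producing cells that lay down the collagen scar and secrete the proteases that remodel it. In bulk RNA from a sorted fraction, fewer cells of a type and less RNA per cell cannot be told apart.

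Matrix genes were the largest group with 1 direction. All 17 rows for extracellular matrix proteins were higher after WT1 deletion, from lumican and dermatopontin among the abundant ones to hemicentin 2 and laminin alpha 2 among the scarce. Granule and alarmin genes of neutrophils moved the other way, with 6 of 6 rows lower. Of all 123 rows, 95 (77.2%) were higher and 28 (22.8%) were lower after deletion, and these shares are the background for each count that follows. The median log2 ratio was 2.28 among the higher rows and -1.77 among the lower rows. All 123 rows (100%) had a ratio of at least 1 on the log2 scale in either direction or were listed at 0 in a group. The smallest was 1.02 among the higher rows and -1.05 among the lower. A value of 0 was listed for 13 rows in the control group and for 4 in the deleted group, and these 17 rows were given no ratio.

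**Figure D1:**
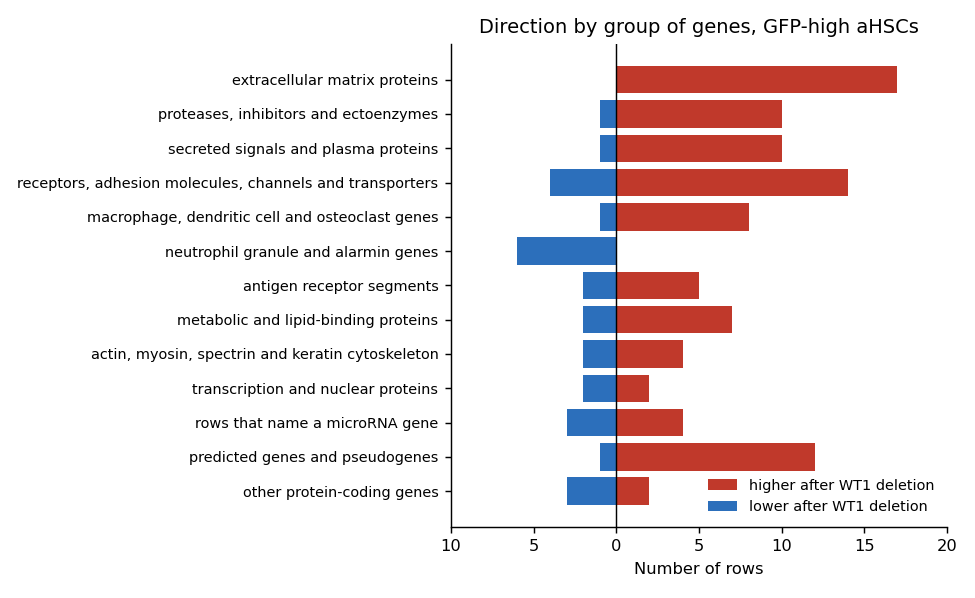
Number of rows higher (red, to the right) or lower (blue, to the left) after WT1 deletion in GFP-high aHSCs, for each of 13 groups of genes. The matrix group holds 17 higher rows and no lower row, whereas the neutrophil group holds 6 lower rows and no higher row.

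Several of the steepest ratios came from 7 rows in which a microRNA gene was merged with an overlapping host gene. MicroRNAs are short RNAs that repress messages through their seed (bases 2 to 8). The miR-29 family is known for targeting collagen messages, and miR-223 is known as a myeloid microRNA. The mature sequences of these members are shown because they identify what lies within the merged rows. They are from RefSeq (GRCm38.p6), written 5′ to 3′, with the seed in capitals.
mmu-miR-29b-3p: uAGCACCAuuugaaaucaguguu
mmu-miR-29c-3p: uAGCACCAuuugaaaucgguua
mmu-miR-223-3p: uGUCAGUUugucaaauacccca
mmu-miR-410-3p: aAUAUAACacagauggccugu
mmu-miR-377-3p: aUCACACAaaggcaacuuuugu
mmu-miR-369-3p: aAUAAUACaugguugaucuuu
The miR-29b and miR-29c strands share their seed and are the same over the first 17 bases, and their hairpins lie 426 bases apart on chromosome 1. No other seed was shared among the 22 mature sequences found for 12 of the 13 microRNA genes named in these rows. Mir1907 was not matched.

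The row of the non-coding host A330023F24Rik with Mir29b-2 and Mir29c was 0.258 FPKM in the control group and 26.6 after deletion, a log2 ratio of 6.69. The row of F630028O10Rik with Mir223 was 1.04 in the control group and 9.61 after deletion. Both merged rows were higher, by different amounts. Actr5, a chromatin remodelling subunit merged with Mir3474, was 3.47 in the control group and 224 after deletion. Irak1, a kinase of interleukin-1 and Toll-like receptor signalling merged with Mir5132 and Mir718, was 52.2 and 120. The other 3 rows were lower. Mirg, a maternally expressed non-coding RNA of the imprinted Dlk1-Dio3 region merged with Mir3072, Mir369, Mir377, Mir410 and Mir412, was 15.3 in the control group and 0.943 after deletion, a log2 ratio of -4.02. Trps1, a GATA-type repressor merged with Mir1907, was 18.8 and 4.44. Ppp1r10, a nuclear regulator of protein phosphatase 1 merged with Mir1894, was 92.7 and 17.5. These libraries were made from total RNA by a standard protocol, mature microRNAs were not measured, and the FPKM of such a row cannot be divided between the host and the hairpin.

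Levels of the 17 matrix rows spanned a wide range of abundance. Lumican (Lum), a leucine-rich proteoglycan that organises collagen fibrils, was 42.6 FPKM in the control group and 136 after deletion. Dermatopontin (Dpt), which binds the proteoglycan decorin and is known in fibroblasts of vessel walls and portal tracts, was 8.66 and 87.0, a log2 ratio of 3.33. Periostin (Postn), a matricellular protein of injured tissue, was 7.10 and 41.1. These were the most abundant matrix members after deletion, together with Mfap5, a component of elastin-associated microfibrils, at 8.10 in the control group and 38.1 after deletion.

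The remaining matrix rows began lower. Sparcl1, a secreted relative of SPARC, was 2.22 in the control group and 11.5 after deletion. Thrombospondin 2 (Thbs2), which limits angiogenesis, was 2.62 and 7.596. Ccbe1, a secreted protein needed for lymphatic growth, had the smallest matrix ratio, at 3.29 and 6.81 (log2 ratio 1.05). The cartilage protein Cilp was 0.426 and 6.07, and the multidomain adhesion protein Svep1 was 0.551 and 2.88. Among these, Cilp changed most, with a log2 ratio of 3.83. The last 5 rows, at or below 1.46 FPKM in both groups, carried some of the steepest ratios. Hemicentin 2 (Hmcn2), of the extracellular immunoglobulin superfamily, was 0.0453 and 1.46, the largest matrix ratio at 5.01 on the log2 scale. Laminin alpha 2 (Lama2), a basement membrane chain, was 0.0957 and 1.21. Srpx2, Mamdc2 and Smoc1 were 0.130, 0.167 and 0.123 in the control group and 1.22, 1.07 and 0.602 after deletion. At such levels a ratio rests on little signal.

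Collagens were represented by chains outside the fibrillar types. Col6a5, a beaded-filament collagen VI chain, was 3.29 FPKM in the control group and 14.4 after deletion. Col8a1 and Col8a2 encode both chains of the short-chain collagen VIII of vascular and subendothelial matrix. Col8a1 was 0.781 and 4.44, and Col8a2 was 0.848 and 2.62. No other collagen chain had a row, so no value is available for types I and III, the chief collagens of the scar. On a list of 116 matrix proteoglycans and glycoproteins, 11 had a row and all 11 were higher, with a median log2 ratio of 2.39 against 2.28 for all higher rows. Summed over the 17 matrix rows, FPKM was 81.0 in the control group and 364 after deletion.

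Proteases, their inhibitors and ectoenzymes, not all of which act on the matrix, went largely the same way, with 10 of 11 rows higher. Mmp2, the gelatinase of activated stellate cells, was 16.9 FPKM in the control group and 91.4 after deletion, the highest level in this group. Pi16, a secreted protein known as a marker of adventitial fibroblasts, was 4.98 and 32.2. The serine protease Htra3 was 12.3 and 31.6. Anpep, a membrane aminopeptidase of myeloid, epithelial and mesenchymal cells, was 4.92 and 27.2. The ratio of Anpep was close to that of Mmp2, at 2.46 and 2.44 on the log2 scale. Adamtsl2, a microfibril-associated protein without protease activity, was 0.372 and 2.61, and the hyaluronan-binding inhibitor chain Itih5 was 2.15 and 6.47. Serpine2, an inhibitor of thrombin and plasminogen activators, was 1.70 and 5.27. The mineralisation enzymes Alpl and Enpp1, which make and consume phosphate and pyrophosphate in opposite reactions, were both higher. Alpl was 0.706 and 2.40, and Enpp1 was 2.35 and 5.49. The cystatin Cst12 was listed at 0 in the control group and at 0.428 after deletion. Cathepsin E (Ctse), an intracellular aspartic protease, was the exception, at 4.18 in the control group and 0.766 after deletion.

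**Figure D2:**
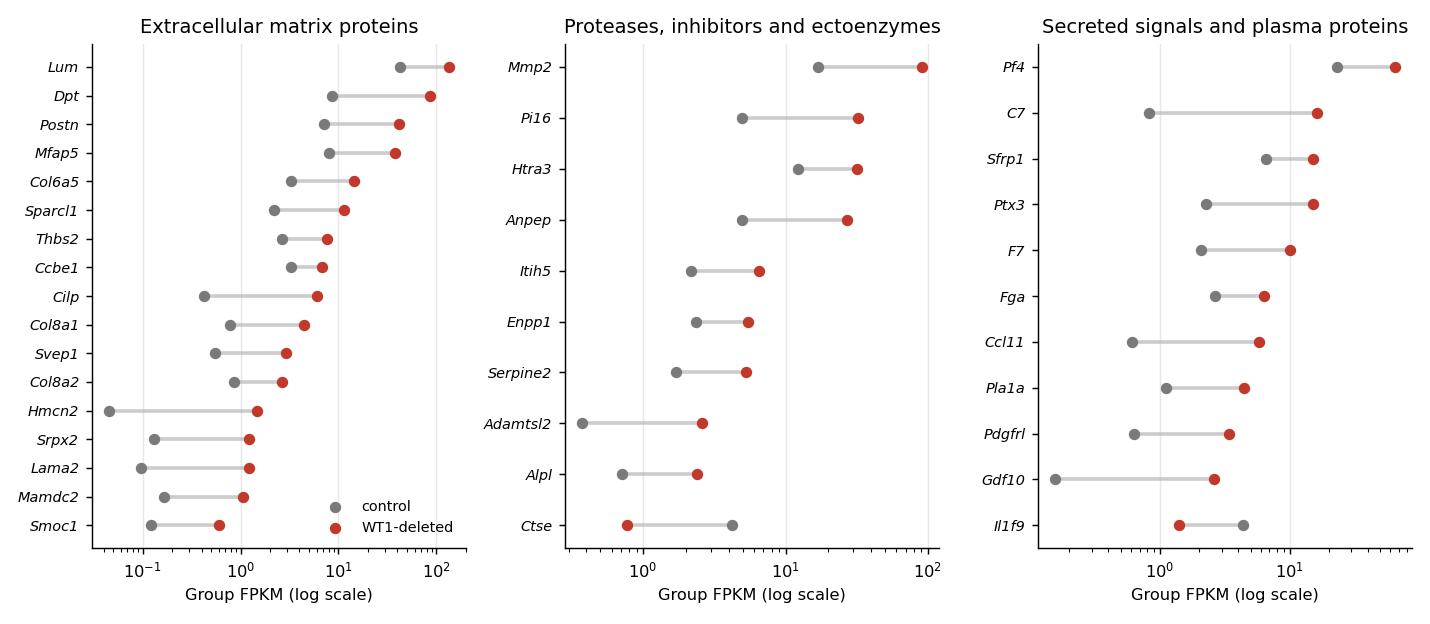
Group FPKM (log axis) of matrix proteins, of proteases, inhibitors and ectoenzymes and of secreted proteins in control (grey) and WT1-deleted (red) GFP-high aHSCs, 1 line per gene, without Cst12, which is listed at 0 in the control group. Red lies to the right of grey on every line except those of Ctse and Il1f9.

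Among 11 rows for secreted signals and plasma proteins, 10 were higher. C7, a terminal complement component, was 0.828 FPKM in the control group and 16.3 after deletion, a log2 ratio of 4.30. Gdf10, a TGF-beta superfamily ligand, was 0.155 and 2.60, and the eosinophil chemokine Ccl11 was 0.611 and 5.76. Pentraxin 3 (Ptx3), a soluble pattern-recognition protein, was 2.25 and 15.2. Sfrp1, a secreted Wnt antagonist, was higher by less, at 6.61 and 15.2. Coagulation factor VII (F7) was 2.08 and 10.01. Fga, the fibrinogen alpha chain made by hepatocytes, was 2.65 and 6.39. Pf4, a platelet and macrophage chemokine, was 23.1 and 65.6, the most abundant of this group in both conditions. Pdgfrl, a secreted PDGF receptor-like protein, was 0.634 and 3.41, and the phospholipase Pla1a was 1.11 and 4.45. The interleukin-1 family cytokine Il1f9 was the lower row, at 4.34 in the control group and 1.41 after deletion.

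Several of these genes are known as markers of portal and adventitial fibroblasts, a mesenchymal population distinct from the sinusoidal stellate cell. Of 25 genes on a list for that cell type, 8 had a row (Dpt, Gdf10, C7, Pi16, Gsn, Mfap5, Inmt and Adamtsl2). All 8 were higher, with a median log2 ratio of 3.07. A gene on the list need not be confined to that cell type. The share of higher rows among the 8 was 100% against the background of 77.2%. The list was drawn up with earlier results of these data known, so this share is not independent evidence. The actin-severing protein gelsolin (Gsn) was 55.8 FPKM in the control group and 164 after deletion, and the methyltransferase Inmt was 0.269 and 5.54. On a list of 21 stellate cell markers only Sparcl1 had a row, and it was higher as well. On a list of 26 genes of activated and contractile stellate cells only Gsn and Myh11 had one, and both were higher. Gsn was thus on this list and on the fibroblast list. The mix of mesenchymal cell types within the sorted fraction was not measured, and its part in these values was not tested. Of 23 fibrogenic genes that the study itself chose, 4 had a row (Ccl11, Gsn, Mmp2 and Pf4) and all 4 were higher. That list was chosen within the study and is not independent evidence of a direction.

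Membrane proteins were mixed, with 14 of 18 rows higher (77.8%), close to the 77.2% of all named rows. The largest ratio was that of Tmem139, a transmembrane protein, at 0.712 FPKM in the control group and 36.1 after deletion. Cadm1, an immunoglobulin-like adhesion molecule, was 5.90 and 20.99, and the ferritin receptor Scara5 was 1.62 and 9.04. Lrrc32, which holds latent TGF-beta at the cell surface, was 2.05 and 5.02. The collagen-binding integrin subunit Itga11 was 0.0833 and 0.899, and Itgbl1, an integrin beta-like protein, was 2.20 and 6.42. The laminin-binding subunit Itga7 went the opposite way, at 70.1 in the control group and 26.8 after deletion. It was the most abundant membrane member in the control group. Sodium channel subunits Scn7a (0.502 and 1.76) and Scn4b (0.194 and 0.848) and the potassium channel Kcnk13 (1.502 and 4.18) were higher. The nucleoside transporter Slc28a3 (6.77 and 2.07), the peptide transporter Slc15a2 (1.29 and 0.117) and Niacr1 (11.9 and 4.84), the niacin receptor, were lower. Tmem100, Slco2b1, Nfasc, Ntrk2 and a merged row of the olfactory receptors Olfr110 and Olfr111 were also higher, with log2 ratios of 2.05, 2.24, 2.04, 2.62 and 2.91. Slc28a3 and Ntrk2 are adjacent protein-coding genes on chromosome 13 in the RefSeq order and went in opposite directions.

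**Figure D3:**
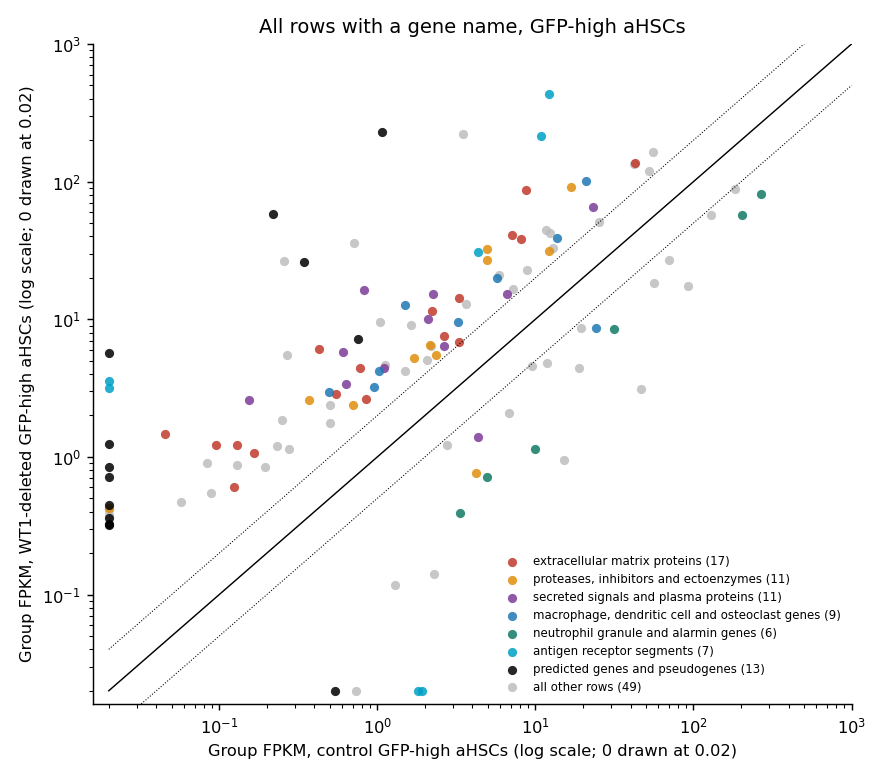
Group FPKM of all 123 named rows in control (horizontal) and WT1-deleted (vertical) GFP-high aHSCs on log axes, with values of 0 drawn at 0.02. The solid line marks equal values and the dotted lines a log2 ratio of 1 in either direction, so that the 95 higher rows lie above the upper dotted line and the 28 lower rows beneath the other.

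Genes of myeloid cells were present among the rows of cells sorted for the red reporter of PDGFRbCre. How far that reporter was confined to mesenchyme was not tested. All 6 neutrophil rows were lower after deletion, out of a list of 31 neutrophil granule and alarmin genes. The calprotectin subunits S100a8 and S100a9, which are adjacent on chromosome 3, were the most abundant of all 123 rows in the control group. S100a8 was 268 FPKM and became 81.1, and S100a9 was 203 and became 57.4. The secreted resistin-like protein Retnlg was 31.6 and 8.49. Secondary granule proteins had steeper ratios from lower levels. Ngp was 9.91 in the control group and 1.15 after deletion (log2 ratio -3.11), lactoferrin (Ltf) was 3.33 and 0.392, and the cathelicidin Camp was 4.93 and 0.719. Summed over these 6 rows, FPKM was 520 in the control group and 149 after deletion.

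Macrophage, dendritic cell and osteoclast genes were higher in 8 of 9 rows. Gpnmb, a glycoprotein of lipid-laden and scar-associated macrophages, was 20.8 FPKM in the control group and 101 after deletion. Atp6v0d2, a proton pump subunit of osteoclasts and macrophages, was 1.503 and 12.7. Tm7sf4, the fusion protein DC-STAMP of multinucleated cells, was 0.496 and 2.97. Ms4a7, a macrophage membrane protein, was 13.6 and 39.2. The Langerhans cell lectin Cd207 was 5.74 and 19.9. Cd200r1 (3.23 and 9.58) and Cd200r4 (0.952 and 3.21), neighbouring receptors of the inhibitory CD200 family on chromosome 16, were higher together, as was Ms4a4d (1.03 and 4.24). Irg1, the enzyme that makes itaconate in inflammatory macrophages, was lower, at 24.3 and 8.71. Summed over the 9 rows, FPKM was 71.7 in the control group and 201 after deletion, and of a list of 27 macrophage markers only Gpnmb and Ms4a7 had a row.

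Antigen receptor rows had some of the largest differences of all. The merged row of the T cell receptor beta constant and joining segments (Trbc1, Trbc2 and others) was 12.1 FPKM in the control group and 436 after deletion, the highest value of any row in the deleted group. The merged row of the alpha constant segment Trac with its joining segments was 10.9 and 213. None of 27 markers of T, NK and B lymphocytes on a list had a row. FPKM divides by length and these 2 rows hold short joining segments, so they cannot be ranked against whole genes. Single immunoglobulin variable segments went both ways. Ighv1-26 was 4.36 and 30.7, Ighv13-2 and Ighv7-1 were listed at 0 in the control group and at 3.57 and 3.17 after deletion, and Ighv2-3 and Igkv4-74 were 1.91 and 1.81 in the control group and listed at 0 after deletion. These segments share sequence with their relatives, which leaves their values uncertain. The part of infiltrating leukocytes in the values of the other groups was not tested.

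Metabolic and lipid-binding proteins were higher in 7 of 9 rows (77.8%), close to the 77.2% of all named rows. The fatty acid carriers Fabp5 and Fabp7 were 42.0 and 11.7 FPKM in the control group and 134 and 44.3 after deletion. Gatm, the first enzyme of creatine synthesis, had the smallest ratio of the higher rows, at 25.2 and 51.0. The urea cycle enzyme Cps1 was 0.233 and 1.20 and, with Fga, was 1 of 2 rows found from a list of 36 hepatocyte genes. The glycosyltransferase Galnt11 was 12.3 and 42.6. The fatty acid elongase Elovl7 was among the lower rows, at 2.76 in the control group and 1.23 after deletion.

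Cytoskeletal rows were divided. Smooth muscle myosin heavy chain (Myh11) was higher but scarce, at 0.0570 FPKM in the control group and 0.468 after deletion, and the GTPase-activating protein Arhgap19 was 3.64 and 12.9. The spectrin Spnb5 was listed at 0 in the control group and at 0.411 after deletion. The merged row of the keratins Krt14 and Krt16 was 183 and 88.4, the only row found from a list of 21 mesothelial genes, and the atrial myosin light chain Myl7 was 129 and 57.2. Both rows were thus abundant in both groups. Among nuclear proteins, the developmental transcription factors Osr1 (7.24 and 16.6) and Foxp2 (0.129 and 0.870) were higher, Foxp2 from below 1 FPKM in both groups. The row of the Notch coactivator Maml2 merged with AC169127.1 was 46.4 and 3.12, and the row of the lamin B receptor Lbr merged with a U6 gene was 56.02 and 18.4. In both merged rows the share of the short or predicted gene is unknown.

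Predicted genes and pseudogenes were higher in 12 of 13 rows and held 2 of the steepest ratios. Gm11942 was 1.07 FPKM in the control group and 228 after deletion, and the ribosomal protein pseudogene Rps2-ps13 was 0.219 and 58.1, the largest log2 ratio at 8.05. A merged row of AC123859.1 with Gm5278 was 0.341 and 26.2, Gm13456 was 0.756 and 7.15, and Gm15431 was listed at 0 in the control group and at 5.66 after deletion. The other 8 rows were listed at 0 in a group and reached at most 1.24. Of the 8 single-gene pseudogene rows, 5 were listed at 0 in a group, and the other 3 (Gm13456, Gm11942 and Rps2-ps13) had log2 ratios of 3.24, 7.73 and 8.05. Processed pseudogenes share reads with their parent genes, and their values are uncertain for that reason. Of the 5 remaining protein-coding rows, D0H4S114 (also called Nrep), a protein of regenerating tissue, was 8.80 and 22.7, and the scaffold protein Mpp3 was 2.28 and 0.140. Tmco7 was 9.55 and 4.604, Ccnb1ip1 was listed at 0 and then 0.379, and Oosp1 was 0.731 and then listed at 0.

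The same genotypes were also sorted for a lower level of GFP (GFP-intermediate aHSCs, labelled low), from 2 control and 2 deleted samples of 5 of the same 6 animals, 1 sample being a pool of 2 control animals. Since the animals are shared, the values are only set side by side. There, 156 of the 419 named rows (37.2%) were higher after deletion. Of the 123 GFP-high rows, 45 had a row there, and 25 of these were higher and 20 lower in deleted GFP-intermediate cells. All 8 matrix rows found there were higher there as well. Lum was 38.1 FPKM in control and 122 in deleted GFP-intermediate cells, Dpt was 24.7 and 62.8, Col6a5 was 2.28 and 10.7, and Mmp2 of the protease group was 19.5 and 82.8. For the neutrophil genes S100a8 was 412 and 123, and S100a9 was 260 and 84.5, lower as in the GFP-high fraction. Macrophage rows ran against their GFP-high direction, except for Irg1. Gpnmb was 178 in control and 39.7 in deleted GFP-intermediate cells, Ms4a7 was 75.8 and 18.7, Atp6v0d2 was 19.6 and 1.30, and Cd207 was 26.9 and 3.71. In the deleted groups Gpnmb was thus 101 in GFP-high and 39.7 in GFP-intermediate cells, and in the control groups 20.8 and 178. The fractions were analysed in separate comparisons, so levels are not directly comparable between them. Pf4 (209 and 27.5), Fabp5 (223 and 78.9), Fabp7 (65.9 and 14.08), Anpep (53.5 and 14.9) and Kcnk13 (10.1 and 2.46) were likewise lower after deletion in GFP-intermediate cells. Whether the effect of deletion differed between the fractions was not tested.

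**Figure D4:**
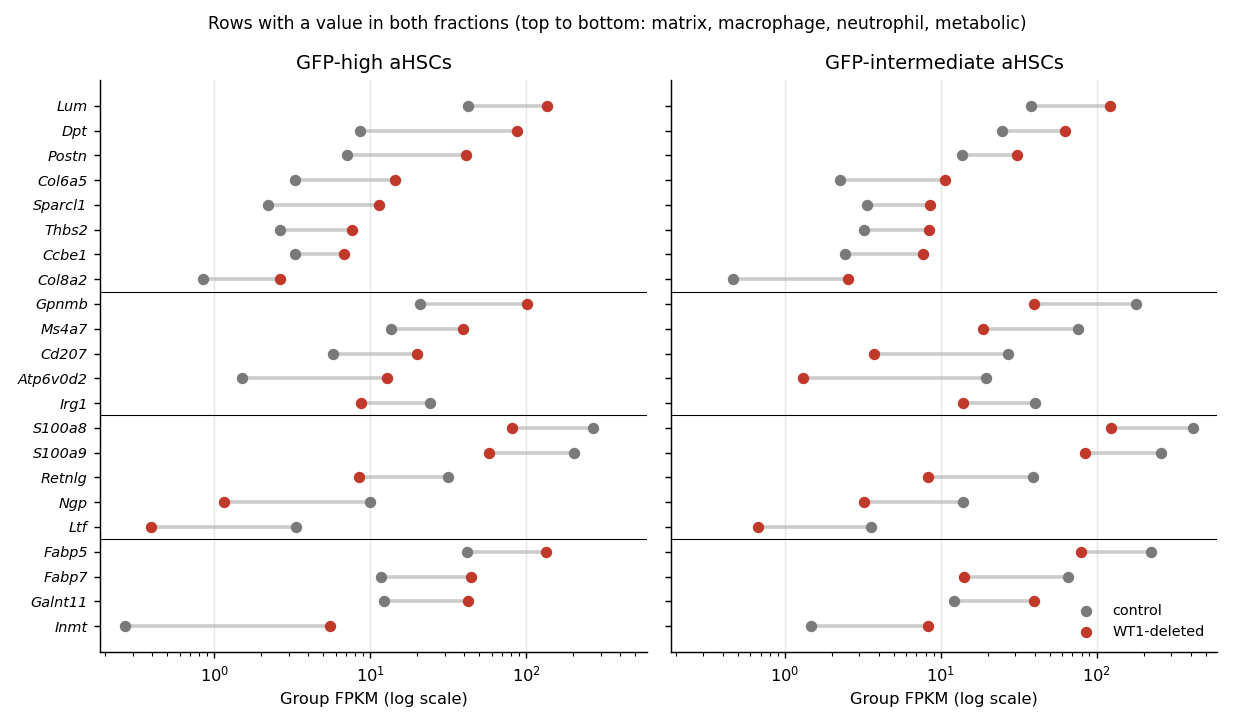
Group FPKM (log axis) in control (grey) and WT1-deleted (red) cells of the GFP-high (left) and GFP-intermediate (right) fractions, for matrix, macrophage, neutrophil and 4 metabolic rows with a value in both tables. Matrix lines run from grey to red rightward in both panels, whereas those of Gpnmb, Ms4a7, Cd207, Atp6v0d2, Fabp5 and Fabp7 run rightward in GFP-high and leftward in GFP-intermediate cells.

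Another table gave these genes in qHSCs from uninjured livers of other animals, in which cells had been marked in the embryo by Cre from the WT1 locus. The paper describes these animals as female, with a tamoxifen-inducible Cre at the WT1 locus and the Ai14 reporter. Tamoxifen was given to the pregnant mother. Sex and genotype therefore differed from those of the male aHSC animals, along with injury. That table compared 3 label-positive with 3 label-negative samples sorted from the same 3 mice, as 1 FPKM per group. Of its 5716 rows, 2883 (50.4%) were higher in label-positive cells. Among the 107 members whose row names 1 gene, 61 had a row there, and 14 of these (23.0%) were higher and 47 lower in label-positive cells (background 49.6%), with a median log2 ratio of -2.07. The genes higher after WT1 deletion therefore lay mostly on the side of the quiescent cells without the WT1 lineage label, with 34 of 47 lower in label-positive cells. The genes lower after deletion lay there too, at 13 of 14. For matrix, protease and secreted members that were higher after deletion, 19 of 22 were lower in label-positive cells.

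Individual values in qHSCs show the size of these differences. With label-negative cells given first, Gsn was 169 and 34.0 FPKM, Pi16 was 32.6 and 8.71, and C7 was 11.5 and 2.03. Ccl11 was 13.3 and 0.719, a log2 ratio of -4.21. Lum was 10.9 and 3.82, and Mmp2 was 5.39 and 1.58. The neutrophil genes were also lower in label-positive cells, 6 of 6, with S100a9 at 1147 and 236, and so were all 5 single immunoglobulin segments. Genes of the merged Trac and Trbc1 rows, counted 1 by 1, were lower too, 13 of 13 and 4 of 4. Trac itself was 227 and 6.79. Of the macrophage group 5 of 6 were lower in label-positive cells, the exception being Cd207 at 14.8 and 27.3. The part of these leukocyte genes in the values of the matrix genes was not tested. Metabolic members went the other way, with 6 of 7 higher in label-positive cells. In the same order, Gatm was 278 and 716, and Inmt was 9.84 and 26.5. Other members higher in label-positive cells were Lrrc32 (32.6 and 91.7), Col8a1 (0.398 and 0.865) and Thbs2 (2.39 and 4.44).

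**Figure D5:**
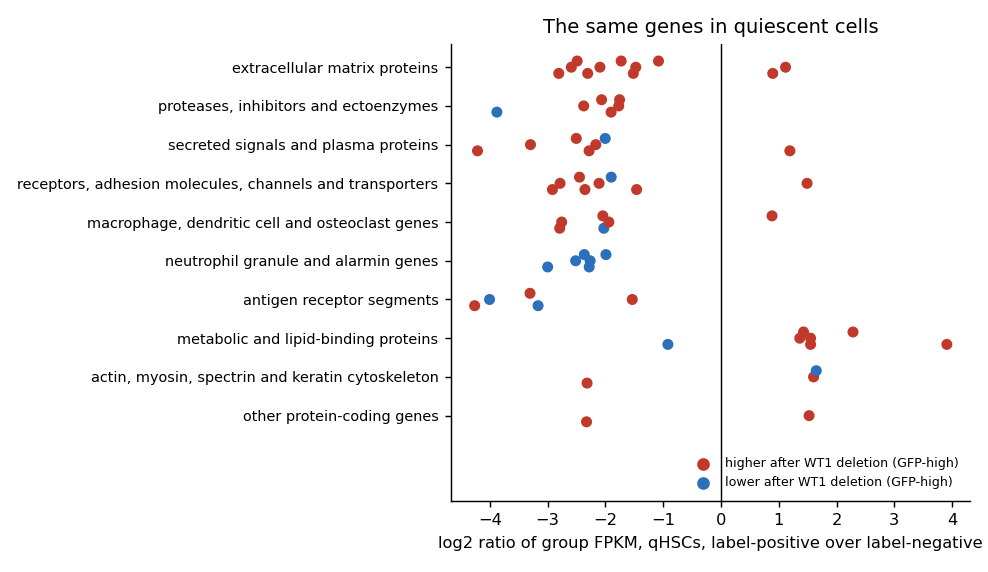
The log2 ratio of group FPKM in label-positive over label-negative qHSCs for the 61 single-gene members with a row in that table, by group of genes, coloured by direction after WT1 deletion in GFP-high aHSCs. Most points lie to the left of 0 (47 of 61), and the metabolic group lies to the right with 1 exception.

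WT1 is known to bind GC-rich sites of the early growth response type, and promoters of the members were searched for them. The windows were RefSeq promoters of GRCm38.p6, from 250 bases before to 50 bases after the gene start, and both strands were read. The motif GCGGGGGCG was found in 3 of 76 member genes with a promoter (3.95%) against 894 of 27025 genes (3.31%). The motif GCGTGGGNG was found in 1 of 76 (1.32%) against 589 (2.18%). The 4 genes with a match, each higher after deletion, were Col8a1, Hmcn2, Serpine2 and Scn7a. Their windows are shown with the match in capitals, since they are the only member promoters with these letters. Matches on the opposite strand are printed as they read in the direction of the gene.
Col8a1 promoter, chr16:57754688-57754987, minus strand: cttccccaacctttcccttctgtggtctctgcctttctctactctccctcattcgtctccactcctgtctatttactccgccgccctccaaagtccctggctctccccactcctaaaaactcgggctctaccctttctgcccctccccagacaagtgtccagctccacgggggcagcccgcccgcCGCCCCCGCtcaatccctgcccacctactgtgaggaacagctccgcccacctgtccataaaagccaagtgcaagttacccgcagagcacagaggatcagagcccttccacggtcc
Hmcn2 promoter, chr2:31314082-31314381, plus strand: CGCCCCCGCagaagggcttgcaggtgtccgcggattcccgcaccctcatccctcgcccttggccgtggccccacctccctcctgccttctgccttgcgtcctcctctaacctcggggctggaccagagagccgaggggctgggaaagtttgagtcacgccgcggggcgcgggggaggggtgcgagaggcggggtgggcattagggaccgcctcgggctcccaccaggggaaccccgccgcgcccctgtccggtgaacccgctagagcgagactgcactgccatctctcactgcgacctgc
Serpine2 promoter, chr1:79858616-79858915, minus strand: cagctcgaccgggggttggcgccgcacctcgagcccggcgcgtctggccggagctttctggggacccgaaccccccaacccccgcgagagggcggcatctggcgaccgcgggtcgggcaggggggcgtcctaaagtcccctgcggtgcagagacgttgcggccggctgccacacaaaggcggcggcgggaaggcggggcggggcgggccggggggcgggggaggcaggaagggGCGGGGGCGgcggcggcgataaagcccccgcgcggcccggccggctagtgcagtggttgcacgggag
Scn7a promoter, chr2:66784861-66785160, minus strand: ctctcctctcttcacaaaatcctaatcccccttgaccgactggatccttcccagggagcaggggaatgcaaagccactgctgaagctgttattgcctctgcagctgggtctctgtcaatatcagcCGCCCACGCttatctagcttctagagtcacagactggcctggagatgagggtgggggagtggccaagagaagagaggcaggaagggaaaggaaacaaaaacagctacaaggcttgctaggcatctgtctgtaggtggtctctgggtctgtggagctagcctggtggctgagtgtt
Counted from the gene start, the first base of the match was at -65 in Col8a1, -250 in Hmcn2, -17 in Serpine2 and -125 in Scn7a. No binding was measured, and a match is a run of letters only.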

How the data were processed

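Stellate cells were isolated by density centrifugation and sorted by flow cytometry, and total RNA was sequenced on an Illumina HiSeq. The submitters' processing notes name TopHat2 2.0.3, Cufflinks 2.0.1, DESeq2 and the builds mm9 and mm10; which build each table used is not stated, so no gene positions are taken from the tables. The deposited FPKM values are Cuffdiff group values that the authors made by combining replicates, limited to genes called different. The paper gives an adjusted p of 0.05 as its threshold. Its smaller count of changed genes in GFP-high cells was not reconciled with these rows. Their fold change and p columns were not used. No value per sample was used and depth is unknown, so no test was made. Ratios are log2(FPKM deleted / FPKM control) without a pseudocount, and rows listed at 0 in a group have none. A row that names several genes was counted once. Computation used Python 3.11.15, pandas 2.3.3 and numpy 2.4.6, and the ratio and count functions were tested on simulated data. The members and lists were chosen with earlier results of these data known, and the groups of genes by role were assigned after the values were seen. All named rows may be named in the text, with full values for members of the lists and for the 10 largest differences in each direction on log2(FPKM + 1). With no spread, a value was said to move when it changed by over 1.5 times. Alternatives were pseudocounts of 1 and 0.1, a minimum of 1 FPKM, single-gene rows and added unnamed loci. Results for some genes are not reported here.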

Additional observations from a re-analysis of the deposited data

Results flagged for a closer look

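Loci without a gene name were left out of every comparison, and 32 of the 108 were higher after WT1 deletion, with 29 of these listed at 0 in the control group and a median length of 313.5 bp. Signal above the control level in rows outside the named genes is what drew attention to them. The other 76 loci were lower, with 72 listed at 0 after deletion, a median length of 78 bp and 52 shorter than 100 bp. Their control FPKM had a median of 1641 and a maximum of 5997930, and the values of so short a locus are not comparable with those of a gene.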

How the results depend on the processing

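Each result is 1 group value, so neither the error between animals nor leave-one-out values nor a fit per sample could be computed, and these alternatives were not run. No paired analysis was possible because each group has 1 value per gene. The alternatives run could not reverse the direction of a row. A pseudocount was added to both groups alike, and the other settings only changed which rows were counted or how. A pseudocount of 1 lowered the median log2 ratio of the higher rows to 1.37 and of the matrix rows to 1.32, and moved 34 of 106 ratios of individual rows by over 1.5 times; a pseudocount of 0.1 moved 1. Adding unnamed loci raised the lower rows to 104. With a minimum of 1 FPKM in the higher group, higher rows became 1 on the transcription factor and contractile lists, 2 for the cytoskeleton, 1 for nuclear proteins, 1 for other coding genes and 6 for predicted genes and pseudogenes, which then had 0 lower rows (8 and 1 on the wider list of predicted and clone-named genes). With single-gene rows only, higher antigen receptor rows became 3, higher and lower microRNA rows 0, the wider predicted list 9 and 1, and lower cytoskeletal rows 1. Lower rows became 0 for nuclear proteins and for the transcription factor, Notch, imprinted, small RNA and mesothelial lists. The other alternatives of counts stayed within 1.5 times.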

Other observations

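The lists of sinusoidal endothelial, erythroid, cholangiocyte, pancreatic acinar and histone genes had 0 named rows each in the GFP-high table, and Pf4 was the 1 row from 15 platelet and megakaryocyte genes. Since the table holds only genes called different, a list without a row gives no level. The 61 members found in the quiescent table and the 45 found in the GFP-intermediate table are counts of rows present in those tables, which were limited in the same way.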
